A study of Xenopus laevis with 32 samples.

Results

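In Xenopus laevis oocytes, 5 localized maternal and germ plasm mRNAs stood near the top of the 6497 rows with a polysome share before maturation began. The mRNAs examined were those of vegt, gdf1, wnt11b, dazl, ddx25, nanos1, velo1, trim36, sybu and grip2, chosen by name. X. laevis is allotetraploid, so a gene can have an L and an S copy (homeologs). All 10 genes were present in at least 1 of 3 tables, under 13 gene names. The table of polysome shares held 5 of them among 6497 rows. No copy of vegt, gdf1, trim36, sybu or grip2 had a share row. The rule by which rows entered that table is not given in the sources used here. Results on shares thus cover only part of the group. The table of RNA levels held 12 of 11943 names, and the table of poly(A) sites held 13 names in 14 gene entries of 13344.

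Many maternal mRNAs of the frog oocyte are moved to the vegetal pole during oogenesis and are inherited by vegetal cells of the embryo. Some encode proteins that pattern the embryo, and others enter the germ plasm, the cytoplasm that marks future germ cells. Their translation is known to be controlled separately from their transport, and several are held silent until particular stages.

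Oocytes were taken along meiotic maturation at 5 stages. These were stage VI, the resting oocyte without progesterone, PG90, which is 90 minutes after progesterone, then meiosis I (MI), interkinesis and meiosis II (MII). Sucrose gradients separated mRNP (free ribonucleoprotein), monosome and polysome fractions, giving 30 polyadenylated RNA libraries, and 2 lanes of PAS-seq, which sequences RNA 3′ ends, came from stage VI. The labels name no strain, genotype, age or number of females. The share and level tables give each stage in 2 columns with the suffixes x and y, treated as replicates. Nothing says that they came from separate animals, so p-values measure the spread between these columns only.

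The share is the authors' polysome fraction of a gene, and what total it is taken of is not stated. It describes where RNA lay in the gradient. Whether RNA in that fraction was being translated was not tested. Across all rows the median share was 0.332 in x and 0.321 in y at stage VI, and the depth behind the shares and levels is unknown. PAS-seq held 656192 reads. Of 7 symbols that mark oocytes, 7 had a level row. Of 9 listed as markers of follicle cells, the somatic cells around the oocyte, 2 did. These were vim.L, a filament gene, and cyp17a1.L, a steroid synthesis enzyme. The level of vim.L was 28.8 (x) and 2.22 (y) at MII, against 30.3 and 22.0 before progesterone. That of cyp17a1.L was 47.8 (x) and 9.48 (y) at MII, against 45.5 and 11.7. Neither passed the test of levels. Which cells their RNA came from was not tested, so their levels are no measure of follicle cells. Their part in the results below was not tested.

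All 5 mRNAs with a share were in the 10% of rows with the highest share at stage VI, and 4 were among its 100 highest rows. The highest was nanos1.L, which encodes a zinc finger RNA-binding protein needed by germ cells, with a stage VI share of 0.610 ± 0.0094 (SD, n = 2). This was rank 5 of 6497. The share of dazl.L, encoding an RNA-binding protein of germ cells, was 0.548 ± 0.079 (SD, n = 2), at rank 32. That of ddx25.L, encoding a DEAD-box RNA helicase of the germ plasm, was 0.543 ± 0.050 (SD, n = 2), at rank 35. The signalling ligand wnt11b.L, which acts in dorsal axis formation, had 0.542 ± 0.0098 (SD, n = 2), at rank 38. The share of velo1.L, whose protein organises the Balbiani body from which germ plasm forms, was 0.509 ± 0.051 (SD, n = 2), at rank 101. The 5 means lay close together from dazl.L to wnt11b.L, where neighbours in the order differed by less than their SDs. The median over all rows was 0.328 for the same mean of x and y. These ranks are a description and carry no test. The members, and the lists used below, were chosen with earlier results of these data known. Their placement is therefore not independent of those results.

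**Figure D1:**
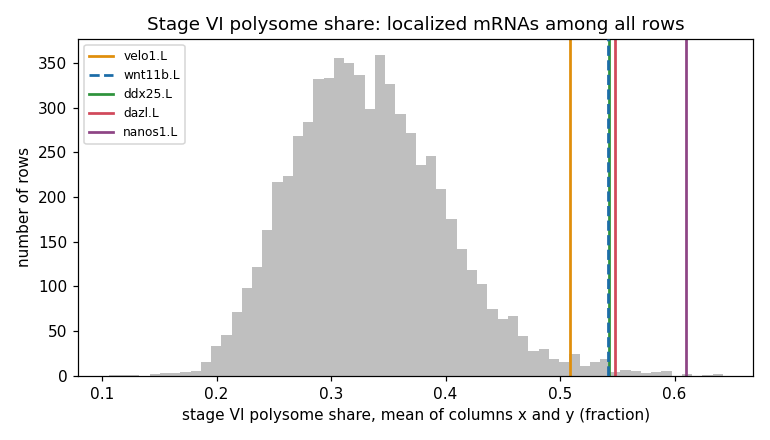
Histogram of the mean stage VI polysome share (fraction) of all 6497 rows in grey, with vertical lines at the 5 localized mRNAs. The lines stand between 0.509 for velo1.L and 0.610 for nanos1.L, in the right tail of the distribution.

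Other germ plasm genes were placed similarly in part. Of 8 rows from a list of further vegetal or germ plasm genes, 4 were among the highest 10% at stage VI, which by construction holds 649 rows. Both homeologs of ddx4, the vasa helicase of germ cells, were near the top. The stage VI share of ddx4.S was 0.594 ± 0.052 (SD, n = 2), at rank 8, and that of ddx4.L was 0.541 ± 0.044 (SD, n = 2), at rank 42. The other 2 among the highest 10%, named after their values were seen, were otx1.L, with 0.475 ± 0.046 (SD, n = 2), and bicc1.S, with 0.443 ± 0.087 (SD, n = 2). Of 17 rows for proteins that localize or regulate these mRNAs, 3 were among the highest 10% (bicc1.S, which is in both lists, dazap1.S and hnrnpab.L). Of 11 rows for receptors and effectors of the ligands, 1 was (acvr2a.S).

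During maturation the x and y columns of the 5 mRNAs differed. In x all 5 were lower at MII than at stage VI. Of all rows, 62.2% were lower in both column sets and 18.4% lower in x and higher in y. The median of the 5 in x was 0.237 at MII, against 0.535 at stage VI, beside 0.233 and 0.332 over all rows. In y the median of the 5 was 0.492 at MII, against 0.549 at stage VI, beside 0.268 and 0.321 over all rows. The first question was whether the polysome share of any of these mRNAs changed. At MII, limma called 0 of 5 at an adjusted p under 0.05, while 4.37% of all rows passed, 3.82% as lower and 0.554% as higher. At an unadjusted p under 0.05 there was 1, velo1.L, against 32.7% of all rows. At PG90, MI and interkinesis limma called 0 of 5, beside 0 of all rows. At an unadjusted p under 0.05 it was also 0 of 5, beside 0.908% of all rows at PG90, 11.7% at MI and 16% at interkinesis.

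For velo1.L the shares at MII were 0.210 in x and 0.366 in y, against 0.473 and 0.545 at stage VI. In between, PG90 had 0.480 and 0.469, MI 0.388 and 0.503, and interkinesis 0.258 and 0.461. Both MII columns lay below both stage VI columns, and so did both interkinesis columns. On the scale of log2(share / (1 - share)), called log2 odds, the change at MII was -1.40 (SE 0.55), with a limma adjusted p of 0.111. Over the alternatives that kept both columns of the 2 stages, this p ran from 0.0349 to 0.358. It was lowest with the column set added as a block, the 1 setting in which a member passed. That setting called 1654 of all 6497 rows, against 284 in the main fit. The change was -0.84 without the MII column x and -0.86 with columns centred on their median. It was -1.76 in x and -1.05 in y, which placed velo1.L at percentile 5.52 of the changes of all rows.

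The ligand mRNA wnt11b.L had shares of 0.221 in x and 0.465 in y at MII, against 0.535 and 0.549 at stage VI. At PG90 the shares were 0.433 and 0.515, at MI they were 0.343 and 0.522, and interkinesis had 0.328 and 0.548. The groups did not overlap at PG90, MI or MII, with lower values at each later stage. At MII the change was -1.26 log2 odds (SE 0.64, limma adjusted p 0.186), -2.03 in x and -0.49 in y. It was -0.44 without the MII column x, -2.07 without y, and -0.72 with columns centred on their median.

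The shares of nanos1.L were 0.395 in x and 0.492 in y at MII, against 0.617 and 0.604 at stage VI. PG90 had 0.676 and 0.536, MI had 0.382 and 0.649, and interkinesis had 0.320 and 0.680. The column sets thus pointed in opposite directions at PG90, MI and interkinesis, and both pointed down at MII, where the groups did not overlap. The change at MII was -0.98 log2 odds (SE 0.75, limma adjusted p 0.363).

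For dazl.L the shares were 0.237 in x and 0.511 in y at MII, against 0.604 and 0.493 at stage VI. For PG90 the values were 0.3997 and 0.485, for MI 0.243 and 0.537, and for interkinesis 0.191 and 0.554. In x the share was lower at every later stage, while in y it stayed between 0.485 and 0.554, and the groups overlapped at MII. The change at MII was -1.09 log2 odds (SE 0.84, limma adjusted p 0.361), made of -2.29 in x and 0.11 in y. It was -0.22 without the MII column x and -1.97 without y.

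The helicase mRNA ddx25.L had the smallest change, with shares of 0.343 in x and 0.570 in y at MII, against 0.507 and 0.578 at stage VI. PG90 had 0.521 and 0.496, then MI had 0.448 and 0.549, and interkinesis 0.322 and 0.598. The groups overlapped at MII. The change was -0.51 log2 odds (SE 0.64, limma adjusted p 0.574), and its sign was not stable. It was 0.025 with each column centred on its median and 0.16 without the MII column x.

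**Figure D2:**
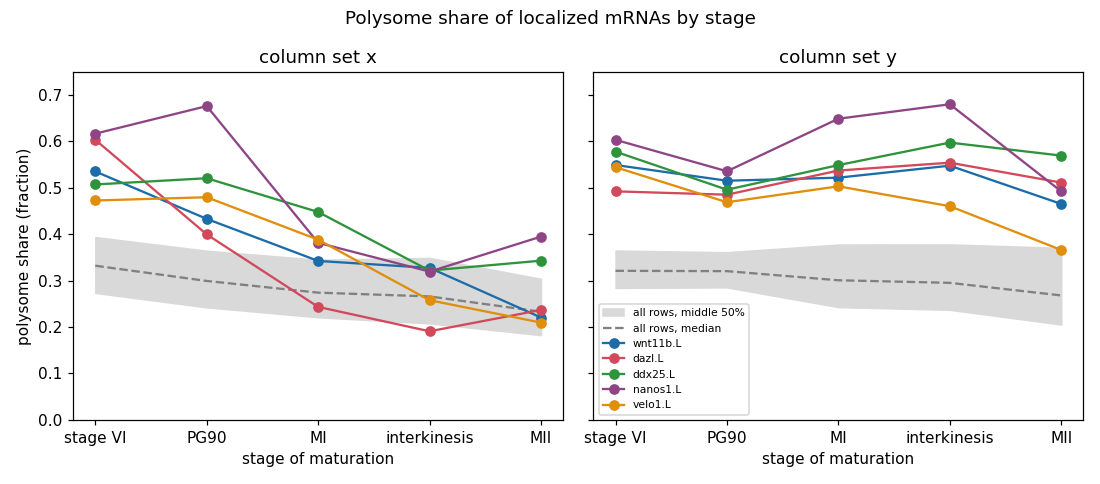
Polysome share (fraction) of the 5 localized mRNAs at the 5 stages, column set x on the left and y on the right, with the median (dashed) and middle 50% (grey) of all 6497 rows. In x the lines are nearer the grey band at MII, where dazl.L stands at 0.237, and in y they stay above the median of all rows, with dazl.L at 0.511.

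Both MII columns lay below both stage VI columns for 3 of the 5 mRNAs, beside 53.5% of all rows, and above them for 0 of 5, beside 9.37%. Relative to stage VI of the same column set, 4 of 5 were lower in both sets, beside 62.2% of all rows, and dazl.L was lower in x and higher in y, beside 18.4%. The same count of lower values was 2 at PG90, beside 21.1% of all rows, 1 at MI, beside 38.8%, and 1 at interkinesis, beside 41% of all rows. Both columns above both stage VI columns were found for 0 of 5 at these stages, beside 7.71%, 12.3% and 12.4% of all rows in stage order. The median change of the 5 was -1.09 log2 odds at MII, against -0.57 over all rows. All 5 had a mean change below 0, beside 4963 of all 6497 rows, except that ddx25.L turned positive with columns centred on their median. In x the median change of the 5 was -1.76, against -0.69 over all rows. In y it was -0.49, against -0.40. The stage VI columns in which the 5 ranked high were also the baseline of these changes. Rows of similar starting share were not compared. Because all rows shifted, rank within the table is given as well. At MII nanos1.L stood at rank 614 and ddx25.L at rank 550 by mean share, and velo1.L at rank 2386, so that 2 of the 5 were among the highest 10% of rows at MII.

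**Figure D3:**
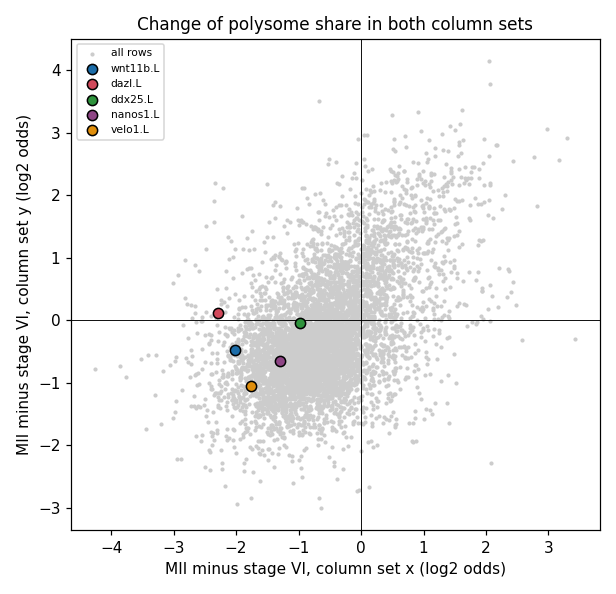
Change of polysome share at MII relative to stage VI (log2 odds), column set x across and y up, for all rows in grey and the 5 localized mRNAs in colour. All 5 points lie left of 0 on the x axis, from -2.29 to -0.98, and span -1.05 to 0.11 on the y axis.

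The spread between x and y was above the median SD of all rows for all 5 mRNAs at MI, interkinesis and MII. At PG90 it was below that median of 0.0379 for velo1.L, with 0.00764, and for ddx25.L, with 0.0175. At interkinesis the SD of dazl.L was 0.257 and that of nanos1.L 0.255, against a median SD of 0.0478 over all rows, and 99.3% of rows had a smaller SD than either. At stage VI the SDs of nanos1.L and wnt11b.L were under the median SD of 0.0352.

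The 2 rows of other genes most like each mRNA over the 10 share columns were found by Pearson's r of log2 odds. The 10 values share their libraries by column, so r is a description. For velo1.L the nearest was mcm3.L (r = 0.991), a subunit of the replicative helicase, and then Xetrov90001378m.S. For dazl.L they were rhoa.L (r = 0.964), a small GTPase, and rbm38.S (r = 0.958), an RNA-binding protein. For ddx25.L they were Xelaev18012877m and cirbp.S (r = 0.966), a cold-inducible RNA-binding protein. For nanos1.L they were LOC734032-like.S and ikbkb.L (r = 0.930), a kinase of NF-kappaB signalling. For wnt11b.L they were Xelaev18032014m and mtch2.L (r = 0.978), a mitochondrial outer membrane protein.

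The next question was whether polyadenylated RNA of these genes changed in amount. The level's unit is not stated and x and y are on different scales, so levels are compared only within a gene and a column set. Over the rows listed once, the stage VI median was 44.7 in x and 9.53 in y. The difference was not the same for every gene. At stage VI wnt11b.L, nanos1.L, sybu.L, sybu.S and grip2.L were higher in y. By contrast, vegt.L, vegt.S, dazl.L, ddx25.L, velo1.L and trim36.L were higher in x. These stage VI columns are the baseline of the ratios below. In bulk oocytes a longer poly(A) tail, which could alter recovery in poly(A) selection, and more RNA cannot be told apart. Of the 12 names, 11 were listed a single time and tested with limma. None passed at any stage, beside 0.0085% of all 11765 rows at PG90, 0.017% at MI and 0 at interkinesis. At MII, 1.95% of all rows passed, 0.612% as higher and 1.33% as lower, and at an unadjusted p under 0.05 there was 1 of 11, velo1.L, beside 30.4% of all rows. The unadjusted count was 1 at PG90 (dazl.L), beside 3.27%, then 0 at MI, beside 14.4%, and 1 at interkinesis (velo1.L), beside 23.7%.

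At PG90, 9 of 11 rows had a higher level in both column sets, beside 31.7% of all rows. In x all 11 were higher, beside 49.4% of all rows, with a median log2 ratio to stage VI of 0.95, against -0.0030 over all rows. In y 9 were higher, beside 57.9% of all rows, with a median of 0.23, against 0.070. The exceptions were vegt.L and grip2.L, higher in x and lower in y, beside 17.7% of all rows. At MII the column sets disagreed. In x 10 of 11 were higher, with a median of 0.88, beside 55.8% of all rows and a median of 0.076. In y 8 of 11 were lower, with a median of -0.34, while 52.9% of all rows were higher, with a median of 0.052. A level higher in x and lower in y was found for 8 of 11, beside 17.4% of all rows, and a level higher in both for 2 of 11, velo1.L and sybu.S, beside 38.4%. The remaining row, vegt.S, was lower in x and higher in y, beside 14.5%.

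Of the germ plasm mRNAs, velo1.L was the one whose level was higher in both column sets at every later stage. Among the other mRNAs this held for sybu.S. Some of these differences were small. At MI the ratio to stage VI was 1.04 for velo1.L in x and 1.008 for sybu.S in y. How many of all rows were higher throughout was not counted. In stage order the level of velo1.L in x was 10.7, 22.0, 11.2, 26.5 and 27.5. In y it was 5.06, 5.95, 6.28, 9.67 and 9.77. The change at MII was 1.15 on the log2 scale (SE 0.27, limma adjusted p 0.0617, range 0.0532 to 0.757 over the alternatives), so it missed the threshold in each alternative in which it was tested. Among the rows above the median level it was not tested. Of the 5 mRNAs with a share, velo1.L was the one with a level higher and a share lower in both column sets at MII. Outside these 5, ddx4.L, described below, also had a higher level and a lower share in both column sets at MII. How many of all rows showed this was not counted. The level headers name a sum without saying of what, so level and share may not be separate measures.

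For nanos1.L the level at MII was 52.8 in x and 24.5 in y, against 26.5 and 50.2 at stage VI. That is 1.99 times the stage VI level in x and 0.487 times in y, opposite directions, and the fitted change was -0.022 (SE 0.46, limma adjusted p 0.979). Centring columns on their median made it 0.043. For dazl.L the level at MII was 93.7 in x and 24.96 in y, against 57.0 and 26.5 at stage VI, a fitted difference of 0.32 (SE 0.24), with a limma adjusted p of 0.405. For ddx25.L it was 72.3 in x and 22.3 in y at MII, against 34.8 and 26.5 at stage VI, a change of 0.40 (SE 0.30) with a limma adjusted p of 0.398. The germ plasm mRNA grip2.L, encoding a PDZ domain scaffold, had low levels of 2.79 in x and 1.94 in y at MII, against 1.55 and 3.26 at stage VI.

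Among the vegetal mRNAs that pattern the embryo, the 2 homeologs of vegt, a T-box transcription factor for endoderm, had different values at MII. The level of vegt.L at MII was 37.7 in x and 7.09 in y, against 33.1 and 16.2 at stage VI, a change of -0.50 (SE 0.31) with a limma adjusted p of 0.313. The level of vegt.S was 56.2 in x and 34.9 in y at MII, against 57.5 and 31.9 at stage VI, a change of 0.048 (SE 0.15, limma adjusted p 0.852). In y the ratio of MII to stage VI was 0.438 for vegt.L and 1.09 for vegt.S, and the difference between homeologs was not tested. How reads common to both homeologs were counted is not given in the sources used here.

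The level of wnt11b.L was 273.6 in x and 136.9 in y at MII, against 148.7 and 257.1 at stage VI. In y it reached 373.0 at PG90 and was 143.2 at interkinesis, while in x it stayed between 239.5 and 273.6 at all later stages. The fitted change at MII was -0.014 (SE 0.47, limma adjusted p 0.987), and 0.051 with columns centred on their median. For trim36.L, encoding a ubiquitin ligase needed for vegetal microtubules, the level was 26.7 in x and 5.50 in y at MII, against 16.1 and 13.2 at stage VI, a change of -0.27 (SE 0.46, limma adjusted p 0.728). Of the homeologs of sybu, encoding syntabulin, a kinesin linker, sybu.S was higher in both column sets and sybu.L in x only. The level of sybu.S was 54.8 in x and 39.8 in y at MII, against 24.5 and 38.7 at stage VI, a change of 0.60 (SE 0.28, limma adjusted p 0.208). That of sybu.L was 37.9 in x and 13.5 in y, against 13.1 and 17.1, also a change of 0.60 (SE 0.41) with a limma adjusted p of 0.369.

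The name gdf1.L, the TGF-beta ligand Vg1 that induces mesendoderm, was listed with 2 level profiles in each column set, in every combination, and was left out of the fit. In x one profile was 241.1 at MII, against 119.2 at stage VI, and the other was 1.45, against 12.4. In y one was 269.6 at MII, against 627.4 at stage VI, and the other was 2.56, against 5.42. Which x profile belongs to which y profile is not given.

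**Figure D4:**
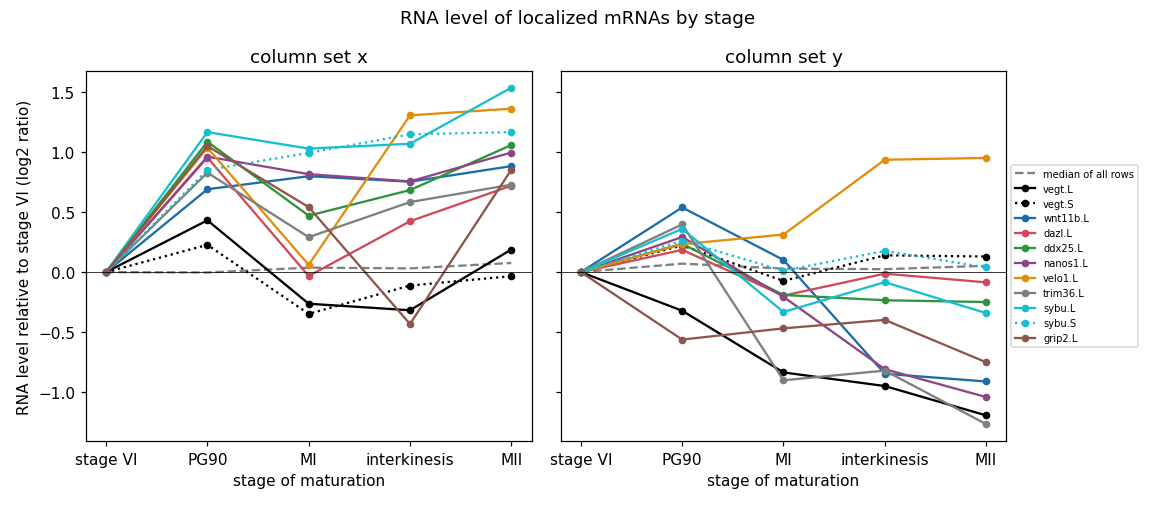
RNA level relative to stage VI (log2 ratio) of the 11 singly listed rows at the 5 stages, column set x on the left and y on the right, S homeologs dotted and the median of all rows dashed. At PG90 all 11 lines are above 0 in x, and at MII 10 are above 0 in x while 8 are below 0 in y.

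The other genes of the pathway were described from 3 lists. Of 8 rows of further vegetal and germ plasm genes, limma called 1 lower and 0 higher in share at MII, ddx4.L, beside 3.82% of all rows called lower and 0.554% called higher. Its shares were 0.220 in x and 0.198 in y at MII, against 0.572 and 0.510 at stage VI, a change of -2.16 (SE 0.36, limma adjusted p 0.0388, range 0.0161 to 0.251 over the alternatives). The level of ddx4.L was 173.5 in x and 50.8 in y at MII, against 113.7 and 20.1 at stage VI, a difference that did not pass (limma adjusted p 0.057). The other homeolog, ddx4.S, had a share row and was not called. The median share change of the 8 rows was -0.55, against -0.57 over all rows. None of their 17 level rows passed in limma at MII, beside 1.95% of all rows, and 3 did so at an unadjusted p under 0.05, beside 30.4%.

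Of 17 share rows for localization and translation regulators, 15 were lower and 2 higher at MII, beside 4963 lower and 1534 higher of all 6497 rows. Of the 17, 1 passed the test as lower, beside 3.82% of all rows, and 0 as higher, beside 0.554%. It was stau1.S, encoding the double-stranded RNA-binding protein Staufen, with shares of 0.199 in x and 0.1996 in y at MII, against 0.385 and 0.402 at stage VI, a change of -1.38 (SE 0.33, limma adjusted p 0.0456, range 0.0181 to 0.251). Of 36 level rows for these regulators, 17 were higher and 19 lower at MII, beside 6448 higher and 5317 lower of all 11765 rows. The test, which called 1.95% of all rows, was passed by 1 as higher, the kinesin heavy chain gene kif5b.L, with a change of 0.88 (SE 0.14, limma adjusted p 0.0475), and by 1 as lower, dazap1.S, which encodes an RNA-binding protein, with -0.83 (SE 0.14, limma adjusted p 0.0475). Of 11 share rows for receptors and effectors of the ligands, 10 were lower at MII, beside 4963 of all 6497 rows. The test was passed as lower by 1, beside 3.82% of all rows, the activin receptor acvr2b.L. Its shares were 0.104 in x and 0.184 in y at MII, against 0.426 and 0.367 at stage VI. The change was -2.02 (SE 0.42, limma adjusted p 0.0392, range 0.0171 to 0.251). The level of acvr2b.L fell too, by 1.14 on the log2 scale (SE 0.18, limma adjusted p 0.0475), the 1 call among 22 level rows. The other homeologs, stau1.L and acvr2b.S, had share rows and were not called in share. The 3 share calls and 3 level calls were lost when either stage VI column was left out, and the level calls also without either MII column. With columns centred on their median the share change of stau1.S was -0.84 (limma adjusted p 0.185) and that of acvr2b.L -1.48 (limma adjusted p 0.063), while ddx4.L kept its call. Without the MII column x, stau1.S and acvr2b.L lost their calls, and without y, stau1.S and ddx4.L did. Without the stage VI column x, 0 of 6497 share rows and 2 of 11765 level rows passed at MII, and without y, 0 and 0. The level calls of kif5b.L, dazap1.S and acvr2b.L had adjusted p-values up to 0.693, 0.885 and 0.812 over the alternatives.

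Poly(A) sites of the stage VI oocyte were listed for all 10 genes. The 14 gene entries held 63 sites with 929 reads, a median of 3.5 sites, against 2 over all genes, and a median of 50 reads, against 26. More than 1 site was listed for 12 of 14, beside 64.5% of all genes. With a minimum of 10 reads per site it was 7 of 14, and trim36.S and 1 gdf1.L entry had no site left. No share of all genes at that minimum is given here, so the 7 cannot be set against it. The most used site held a median of 48.4% of a gene's reads, against 72.7% over all genes. These medians are not at equal depth. Intervals cover counting error only. The labels and headers name no build for the positions and no annotation was used, so exon, intron or UTR is not given.

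The mRNA of velo1.L had the most reads of the group, 206 in 9 sites on chromosome 6L, and more than 96.9% of genes. Its most used site was at base 60332877 on the plus strand, with 67 reads or 32.5% (Wilson 95% interval 26.5% to 39.2%). The second, with 55 reads, was 3752 nt downstream at base 60336629, the last site listed. Sites over 1 kb upstream of the last held 54.4% of its reads. The 80 reads of wnt11b.L on chromosome 8L fell into 2 groups of 3 sites. The last site, at base 21226161, held 26 reads or 32.5% (Wilson 95% interval 23.2% to 43.4%), and the 3 sites between 5673 and 5838 nt upstream held 41 reads or 51.2%.

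The reads of ddx25.L were the most dispersed, with 112 reads at 11 sites over 13558 nt of chromosome 7L. Its most used site, at base 67485847, held 18 reads or 16.1% (Wilson 95% interval 10.4% to 24.0%). The mRNA of nanos1.L was at the other end, with all 19 reads at base 4860210 of chromosome 7L. In grip2.L 53 of 58 reads, or 91.4% (Wilson 95% interval 81.4% to 96.3%), were at base 127149385 of chromosome 4L. In dazl.L 15 of 32 reads, or 46.9% (Wilson 95% interval 30.9% to 63.6%), were at base 41957964 of chromosome 6L. The 2 entries named gdf1.L, each on an unplaced scaffold, held 28 reads at 3 sites and 9 reads at 1 site.

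In 3 genes both homeologs could be set side by side. The last site was the most used in both copies of vegt, with 50 of 146 reads or 34.2% (Wilson 95% interval 27.0% to 42.3%) at base 152585841 of chromosome 1L in vegt.L, and 46 of 77 or 59.7% (Wilson 95% interval 48.6% to 70.0%) at base 126232106 of chromosome 1S in vegt.S. The second most used site was 555 nt upstream in vegt.L and 575 nt upstream in vegt.S. In sybu the most used site was an upstream one in both copies, 230 nt upstream of the last in sybu.L, with 69.4% of 36 reads, and 239 nt upstream in sybu.S, with 78.6% of 42 reads. In trim36 the most used site was the one farthest upstream in both, with 32.8% of 61 reads 7198 nt from the last site in trim36.L and 39.1% of 23 reads 1647 nt from it in trim36.S. The last site held 29.5% (Wilson 95% interval 19.6% to 41.9%) in trim36.L and 34.8% (18.8% to 55.1%) in trim36.S, within counting error of the most used site.

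**Figure D5:**
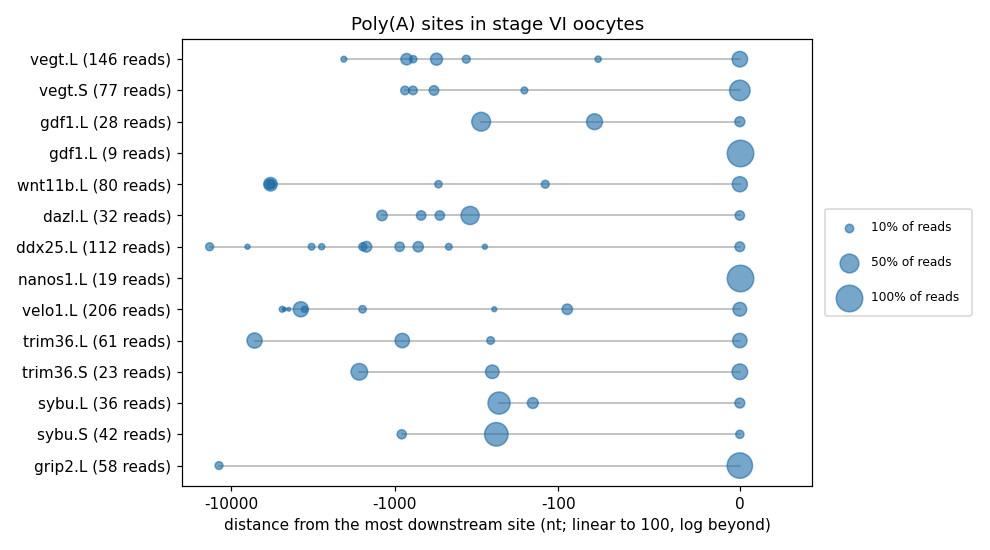
Poly(A) sites of the 14 gene entries in stage VI oocytes, placed by distance from the most downstream site in nt (linear to 100 nt, log scale beyond), with circle area proportional to the share of the gene's reads. The 19 reads of nanos1.L are at 1 site, while the 11 sites of ddx25.L span 13558 nt.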

How the data were processed

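Polyadenylated RNA from sucrose gradient fractions at 5 stages (30 libraries) and PAS-seq from stage VI (2 lanes) were analysed from 3 tables. The submitters' processing notes name Bowtie, Bowtie2, TopHat2 and Cufflinks; their roles, the genome build and the scaling are not given in the sources used here. The polysome share is deposited as a fraction per gene. The RNA level is deposited in an unstated unit, read as a score, with a ratio column per later stage that the authors computed, equal to its level divided by the stage VI level. PAS-seq is deposited as a read count per site, with 1 column for both lanes.

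Every share row (6497) and every level name listed once (11765; 178 repeated names were left out) was fitted with limma 3.58.1 in R 4.3.3, with a trended prior. Shares were taken as log2 odds with stage as the only term. Levels were taken as log2 with stage and column set as terms. Neither had a pseudocount or a filter on low values. The share fit had no column-set term because the labels state no such block. The level fit had it because x and y are on different scales. P-values were adjusted by Benjamini-Hochberg over all rows within each contrast with stage VI. Residual degrees of freedom were 5 and 4. The fits were run on simulated data with independent noise and with changes larger than the fitted changes of the members. Whether changes of the members' size would be called was not tested. The members, lists and tests were chosen with earlier results of these data known. Genes named are all members, the 2 most similar share rows of each, and list genes past the threshold with up to 2 others a list. All 13 member names matched a RefSeq symbol or synonym of assembly Xenopus_laevis_v10.1, used for names only. The base of a site lay at the 3′ end of its listed interval on the listed strand for 99.5% of sites, which set upstream and downstream.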

Additional observations from a re-analysis of the deposited data

How the results depend on the processing

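By the labels' replicate numbers, no paired analysis was possible because the labels tie no column suffix to a number. Columns could be paired by suffix, and that was fitted, as the column-set block for shares and as a term of the level fit. At MII, 0 of 5 members were called in share under every alternative except the column-set block, which called 1 (velo1.L), and 0 in level under every alternative, of 11 tested, or of 7 among rows above the median level. The 284 share rows called at MII became 127 with columns centred on their median, 54 under quantile normalization and 1654 with the column-set block, and ran from 0 to 106 with 1 column left out. The 229 level rows called at MII became 0 without the column-set term, 587 with columns centred, 0 with the columns of the 2 stages only, 626 among rows above the median level and 593 with log2(level + 1), and ran from 0 to 47 with 1 column left out. At PG90 the 1 level row called became 0 with the 2 stages only and 2 with log2(level + 1), with 1 to 12 on leaving out a column. At MI the 2 became 0 with the 2 stages only and 0 above the median level, with 2 to 9. At interkinesis 0 became 0 to 5, and for shares 0 became 0 to 3. Causes were not tested, except that leaving out a column lowers the sample number.

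Signs reversed for share at MII in ddx25.L (0.025 centred, and -1.19 to 0.16 with 1 column left out). For level at MII, centring with or without the column-set term gave 0.051 for wnt11b.L and 0.043 for nanos1.L. Leaving out 1 column gave -0.038 to 0.13 for vegt.S, -0.60 to 0.57 for wnt11b.L, -0.063 to 0.87 for ddx25.L, -0.68 to 0.64 for nanos1.L, -0.89 to 0.36 for trim36.L, -0.052 to 1.24 for sybu.L and -0.47 to 0.57 for grip2.L. Without a change of sign, leaving out 1 column moved the level change of vegt.L between -0.95 and -0.056, of sybu.S between 0.14 and 1.06 and of dazl.L between 0.045 and 0.59, and the share change of nanos1.L between -1.26 and -0.69. Centring moved the share change of dazl.L to -0.55 and of nanos1.L to -0.44. Of the 12 member entries with more than 1 poly(A) site, 7 kept more than 1 with at least 10 reads per site. With sites within 50 nt merged, 12 did. Neither count has a share of all genes beside it, so both describe the members only.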
